A study of Mus musculus with 14 samples.

Results

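Ly6a, Ly6c1, Ly6c2 and Ly6e encode small cysteine-rich proteins of the Ly6 family that sit on the outer face of the cell membrane. These 4 genes, of 19959 listed in any deposited table, were chosen by symbol, with the counts and FPKM values of all 3 experiments and the differences between their groups already known. Their own differences are therefore described with values and standard errors and carry no p-value. RNA was sequenced from mouse CD8+ T cells recovered from E.G7 tumors, a lymphoma that descends from the EL4 line and expresses ovalbumin, in 14 libraries that form 7 groups of 2. In the first experiment, Bcl6-RFP reporter mice carried E.G7 tumors under the skin, and tumor-infiltrating lymphocytes (TILs) were sorted on day 21 into Bcl6+, DN and TIM-3+ populations. In the other experiments the cells were OT-I cells, whose transgenic T cell receptor recognizes ovalbumin, sorted from E.G7 tumors about 8 days after cotransfer. One compared Prdm1-overexpressing with control cells (labelled Prdm1neg), the other Bcl6-overexpressing with control cells (labelled Bcl6neg). The sources used here do not give the meaning of DN, the build of the reporter allele, the vector, the ages of the mice or any pooling of animals.

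Ly6 proteins have no membrane-spanning segment and are held in the membrane by a glycosylphosphatidylinositol (GPI) lipid anchor. Ly6a, also known as Sca-1, marks hematopoietic stem cells and activated T cells; Ly6c1 and Ly6c2 together encode the Ly6C antigen, carried by inflammatory monocytes, endothelial cells and effector and memory CD8+ T cells; Ly6e is broadly expressed and restricts the entry of several viruses. Interferons induce Ly6a, Ly6c and Ly6e, and IL-27 induces Ly6a and Ly6C in T cells.

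The 4 genes lie on chromosome 15 of mm10 (GRCm38), and positions are those of the GENCODE annotation of that assembly. Ly6e (ENSMUSG00000022587) spans 74955051 to 74959905 on the plus strand. The others lie on the minus strand, Ly6a (ENSMUSG00000075602) at 74994877 to 74998031, Ly6c1 (ENSMUSG00000079018) at 75044018 to 75048830 and Ly6c2 (ENSMUSG00000022584) at 75108158 to 75111970. Ly6c1 and Ly6c2 are near copies: their coding sequences of 393 bases, taken from the principal transcripts, differed at 9 positions and were 97.7% identical. Ly6a was 81.6% identical to Ly6c2 in its coding sequence, and Ly6e 50.6%. A stretch of exon 4 shows how alike the Ly6c genes are, and so why reads from one may be credited to the other. It covers coding bases 238 to 327 of each gene (Ly6c1 at chr15:75045471-75045560 and Ly6c2 at chr15:75108612-75108701, minus strand, written 5′ to 3′ from the annotated transcripts), with the bases that differ in capitals.
Ly6c1: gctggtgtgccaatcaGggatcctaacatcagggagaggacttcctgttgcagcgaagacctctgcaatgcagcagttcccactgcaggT
Ly6c2: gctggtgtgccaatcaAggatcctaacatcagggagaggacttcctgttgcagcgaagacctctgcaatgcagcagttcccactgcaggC

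In this stretch of 90 bases, 2 bases differ. Of the distinct 100-base sequences in all annotated Ly6c2 transcripts, 5.81% also occurred in Ly6c1, and of those in Ly6c1 9.05% occurred in Ly6c2; for 50-base sequences the shares were 13.9% and 21.5%. Ly6a shared 1.45% of its 100-base sequences with another gene, and Ly6e 0. These shares cover all annotated transcripts of each gene, and those of the principal transcripts alone were not measured. The sources used here do not say how reads that match several genes were counted, so the split between Ly6c1 and Ly6c2 is uncertain.

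Upstream of their start sites the pair is less alike. The 250 bases before the start (RefSeq, GRCm38.p6) aligned with 57.7% identity over 284 columns. That share counts columns with a gap in either sequence, ends included. The windows are also offset: that of Ly6c2 begins with bases found inside the Ly6c1 window and runs past its end. Among the bases that align, identity is therefore higher than this share. The windows are shown because Ly6c2 was among the more abundant genes in most libraries while Ly6c1 was at a few counts. Ly6c1 lies at chr15:75048838-75049087 and Ly6c2 at chr15:75111972-75112221, both on the minus strand and written 5′ to 3′; the motifs named below, other than the E-box, are in capitals.
Ly6c1: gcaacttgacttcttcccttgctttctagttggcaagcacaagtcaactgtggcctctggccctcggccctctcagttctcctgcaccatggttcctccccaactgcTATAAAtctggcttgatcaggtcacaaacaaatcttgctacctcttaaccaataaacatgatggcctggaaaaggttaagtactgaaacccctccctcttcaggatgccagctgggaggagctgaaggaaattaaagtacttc
Ly6c2: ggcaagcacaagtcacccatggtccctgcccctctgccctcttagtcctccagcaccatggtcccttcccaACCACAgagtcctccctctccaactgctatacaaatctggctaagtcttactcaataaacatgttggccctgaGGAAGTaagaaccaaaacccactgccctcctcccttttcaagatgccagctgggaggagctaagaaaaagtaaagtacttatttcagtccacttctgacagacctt

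On either strand, the Ly6c1 window held 1 TATA motif (TATAAA), found in 12.4% of the 32851 RefSeq windows of the same length. The Ly6c2 window held 1 Runx motif (TGTGGT, read on the other strand; 14% of windows) and 1 ETS motif (GGAAGT; 19.7%). E-boxes (CANNTG; 66.2%) numbered 3 in Ly6c1 and 2 in Ly6c2. The interferon motifs GAS (TTCNNNGAA; 7.02%) and ISRE core (2.98%), the Blimp-1 core (GAAAGT; 12.3%) and a T-box element (GTGTGA; 12.3%) were in neither window. These are matches of letters in the reference and say nothing of binding in these cells. Windows for Ly6a and Ly6e were not used here.

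Libraries held between 18309162 and 22322079 counts. The levels of Bcl6 and Prdm1, after which groups are named, were checked first. Bcl6 measured 418 ± 15 CPM (counts as a share of the library total, scaled between libraries by TMM; SD, n = 2) in Bcl6+, 92.8 ± 2.9 in DN and 16.6 ± 2.4 in TIM-3+ TILs, and 80.9 ± 19 in Bcl6-overexpressing against 3.98 ± 0.20 in control OT-I cells. Prdm1 measured 177 ± 27 CPM in Prdm1-overexpressing and 101 ± 14 in control cells, a difference that missed the threshold (edgeR adjusted p = 0.092). CD8+ T cell markers, of which 7 of 8 were listed (Trac was not), summed to between 5020 and 9700 CPM in every library. Tables were normalized by experiment, so groups are compared within an experiment only. A gene was called where the edgeR quasi-likelihood test gave a Benjamini-Hochberg adjusted p under 0.05. Nothing in the labels says that 2 libraries of a group came from separate animals, so p-values given for other genes measure only the spread between these samples.

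By the authors' FPKM values, which are scaled for gene length and library size, Ly6e was the most abundant of the 4 in every library and Ly6c1 the least. Ly6e ranged from 134.7 to 547.7 FPKM and stood within the top 2% of listed genes throughout, between rank 48 and rank 273. Ly6a ranged from 58.3 to 363.8 FPKM and Ly6c2 from 9.16 to 277.9. Ly6c1 stayed between 0.0265 and 0.943 FPKM. The authors' lengths matched the summed length of all annotated exons, 2740 bases for Ly6c2, while its principal transcript has 822. FPKM values of Ly6c2 are therefore low for the reads its main transcript gave, more so than those of Ly6a (1205 against 955 bases) and Ly6e (3784 against 2281). Per base of the principal transcript, a measure added after the values were seen, Ly6e was the highest in 9 libraries, all 6 of the TILs among them, and Ly6c2 in 5 OT-I libraries. In the OT-I libraries Ly6e then stood at 0.817 to 1.18 times Ly6c2, so the order of these genes there depends on the length used.

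**Figure D1:**
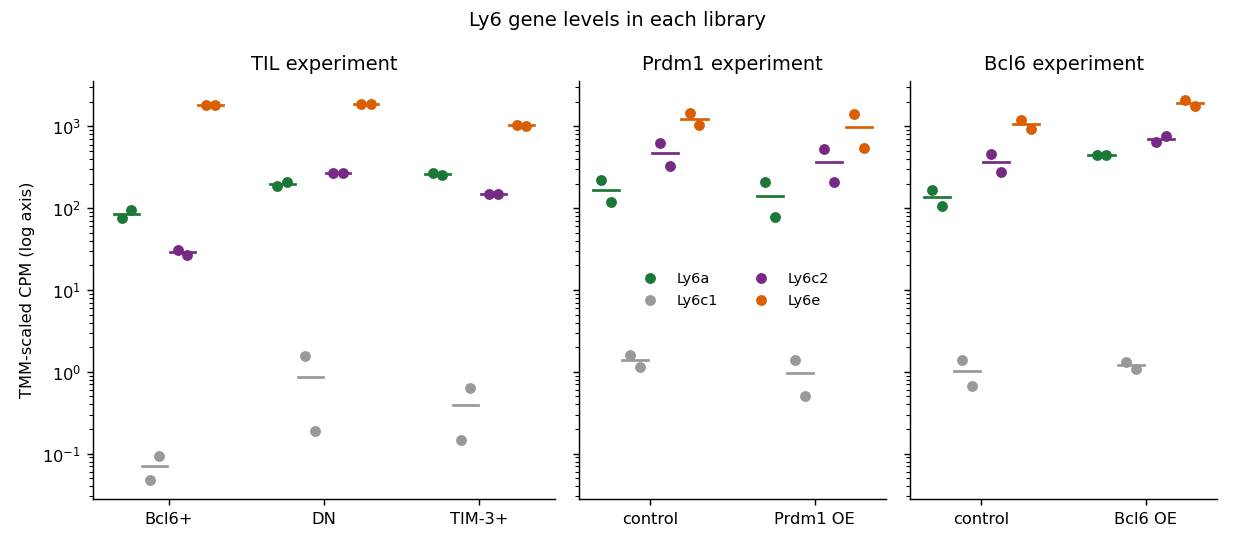
TMM-scaled CPM of Ly6a, Ly6c1, Ly6c2 and Ly6e on a log axis, by group in the 3 experiments; each point is 1 library and each short line the mean of 2 (OE, overexpressing). Ly6c2 spans 26.8 to 267.5 CPM among TILs, and replicates of the OT-I controls lie farther apart than those of the TILs.

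Ly6c1 was at or near the limit of detection. Its raw counts were 1 and 2 in Bcl6+ TILs, 33 and 4 in DN TILs, and 3 and 13 in TIM-3+ TILs. The 2 DN libraries thus differed from each other more than the DN and TIM-3+ groups did. The Prdm1 experiment gave counts of 30 and 23 for control and 24 and 9 for overexpressing cells. The Bcl6 experiment gave 28 and 14 for control against 28 and 24. Ly6c1 made up between 0.0697% and 0.582% of the counts of the Ly6c pair. It was below a mean of 1 FPKM in each experiment and was not tested; 3 of the 4 genes passed that filter. Without the filter it was called in none of the 5 comparisons, with log2 differences from -3.55 (SE 1.99) to 0.34 (SE 0.84). Adding its counts to those of Ly6c2 left every call on Ly6c2 as it was.

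Bcl6+ TILs held far less Ly6c2 than DN TILs and less Ly6a, while Ly6e was at about the same level in both. Ly6c2 measured 30.7 and 26.8 CPM in the Bcl6+ libraries and 267.4 and 267.5 in the DN libraries. Both Bcl6+ libraries lay far below both DN libraries. The level was 9.30-fold lower in Bcl6+ cells (log2 difference -3.22, SE 0.11), which placed Ly6c2 15th from the lowest of 9748 genes tested. Ly6a measured 75.3 and 94.2 CPM in Bcl6+ and 186.5 and 206.7 in DN cells, a log2 difference of -1.21 (SE 0.11). Its groups did not overlap either, though the Bcl6+ pair was spread more widely than that of Ly6c2. Ly6e measured 1844 and 1821 CPM against 1899 and 1898, with a log2 difference of -0.05 (SE 0.04) that was not called, although its groups did not overlap either. Groups did not overlap for 54.4% of all genes tested, as is common with 2 libraries against 2. In this comparison 14.2% of all genes tested were called. Among the 4 genes, 2 were called lower (Ly6a and Ly6c2), 1 was not called (Ly6e) and 1 was not tested (Ly6c1).

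TIM-3+ TILs held the most Ly6a and the least Ly6e of the 3 TIL populations. Ly6a measured 271.3 and 256.6 CPM in TIM-3+ cells, above both DN libraries, a log2 difference of 0.42 (SE 0.11). That call did not hold with scaling by total counts (0.26), with limma on FPKM rescaled to an equal sum in each library (TPM; 0.24) or without the first DN library (0.35). Ly6c2 measured 151.1 and 149.5 CPM in TIM-3+ cells, between the other populations. It was 1.78-fold lower than in DN cells (log2 difference -0.83, SE 0.10). Ly6e measured 1052 and 1021 CPM in TIM-3+ cells, below all other TIL libraries (-0.87, SE 0.04). None of the 3 genes overlapped between these groups, nor did 65.0% of all genes tested. Of all genes tested, 28.2% were called in this comparison, and of the 4 genes 1 was called higher and 2 lower.

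Set against each other, Bcl6+ and TIM-3+ TILs differed in opposite directions for these genes. Ly6c2 was 5.22-fold lower in Bcl6+ cells (log2 difference -2.39, SE 0.10) and Ly6a 3.11-fold lower (-1.64, SE 0.11). Ly6e was 1.77-fold higher in Bcl6+ cells (0.82, SE 0.04). Here 38.6% of all genes tested were called, as were Ly6a, Ly6c2 and Ly6e, and groups did not overlap for 68.8% of all genes and for these 3. The order of the populations was therefore different for each gene: TIM-3+, DN, Bcl6+ for Ly6a; DN, TIM-3+, Bcl6+ for Ly6c2; and DN with Bcl6+, then TIM-3+, for Ly6e, whose small difference between DN and Bcl6+ cells was not called. The TIL comparisons share their libraries. Scaling by total counts moved the median of all genes by -0.17 in TIM-3+ against DN and by 0.19 in Bcl6+ against TIM-3+ cells; the directions of Ly6c2 and Ly6e stayed as given.

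The proportions among the genes shifted with them. Ly6e exceeded Ly6c2 in FPKM by 43.5 and 49.1 times in Bcl6+ libraries and by 4.94 to 5.14 times in DN and TIM-3+ libraries. Ly6e exceeded Ly6a by 7.80 and 6.16 times in Bcl6+, 3.24 and 2.92 times in DN, and 1.23 and 1.27 times in TIM-3+ libraries. Per base of the principal transcript these ratios kept the same order, at 21.6 and 24.5 against 2.46 to 2.56 for Ly6c2, and at 10.3 and 8.10, 4.26 and 3.84, and 1.62 and 1.67 for Ly6a. In these bulk samples, fewer cells of a type and less RNA per cell cannot be told apart.

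Other cells in a sort could also carry these genes, and their markers were read in each library. Of 16 monocyte and macrophage markers, all listed and none at 0 throughout, Spp1 (osteopontin, made by macrophages and activated T cells) held most of the sum and was set apart after the values were seen. The other 15 markers summed to 294 and 261 CPM in Bcl6+, 162 and 163 in DN and 73.6 and 56.5 in TIM-3+ TILs. These markers, whose cells carry Ly6C, were thus highest in the population with the least Ly6c2. Of 8 tested with Spp1 among them, 4 were called higher and 0 lower in Bcl6+ than in DN cells (median 0.86). In TIM-3+ against DN cells 1 was called higher and 4 lower, and in Bcl6+ against TIM-3+ cells 7 higher and 1 lower. Of all genes tested, 14.2%, 28.2% and 38.6% were called in these 3 comparisons. Lyz2, the lysozyme of myeloid cells, was not called between Bcl6+ and DN cells (0.46, edgeR adjusted p = 0.14) and was lower in TIM-3+ than in DN cells (-1.54, edgeR adjusted p = 5.0e-05). Endothelial markers (6 of 8 listed), nearly all of it Pecam1, which T cells also express, summed to 83.5 to 107 CPM in Bcl6+, 79.5 to 90.4 in DN and 41.0 to 47.0 in TIM-3+ TILs. Class II genes of the B cell list (Cd74, H2-Aa and H2-Ab1), which macrophages and dendritic cells share, summed to 658 and 630, 404 and 407, and 66.1 and 67.8 CPM in Bcl6+, DN and TIM-3+ TILs; the other 5 B cell markers stayed at or below 4.29 CPM. Plasmacytoid dendritic cell markers (6 of 6) summed to 172 to 191, 128 to 137 and 88.4 to 98.4 CPM in that order. Of these 6, 4 were called lower in TIM-3+ than in DN cells (median -3.55) and 5 higher in Bcl6+ than in TIM-3+ cells. Neutrophil markers (5 of 8) stayed at or below 5.20 CPM. Thymocyte and lymphoma markers (4 of 5) summed to 47.4 to 53.8, 43.0 to 54.3 and 33.2 to 37.2 CPM in Bcl6+, DN and TIM-3+ TILs. CD4 T cell markers (5 of 5) summed to 531 to 562, 693 to 707 and 724 to 742 CPM in that order. The part of such cells in the differences was not tested.

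**Figure D2:**
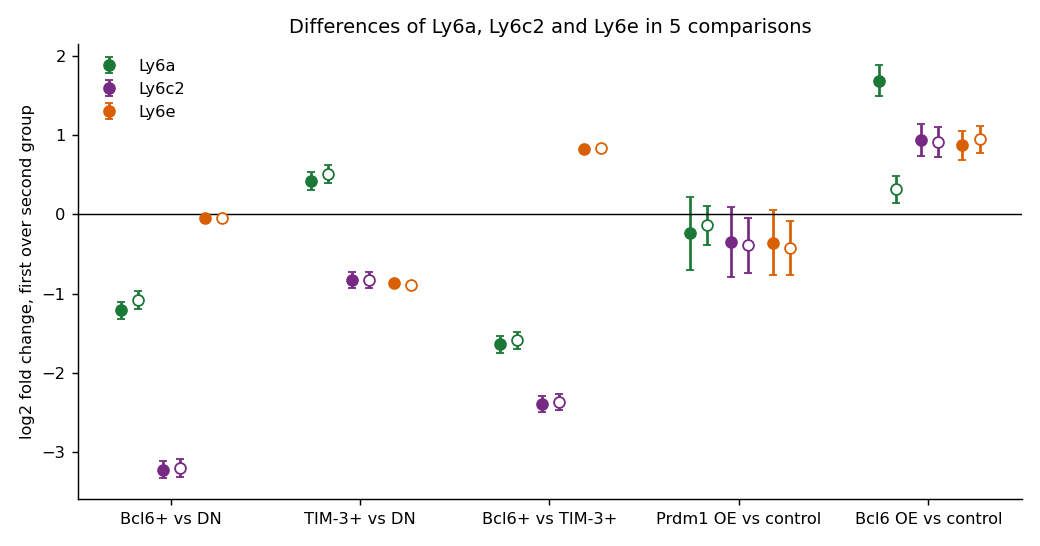
Log2 difference of Ly6a, Ly6c2 and Ly6e in 5 comparisons (first group over second), with the standard error of the fit as bars; filled points are the main fit, open points the fit with the trend on gene length removed (OE, overexpressing). Ly6c2 is lowest in Bcl6+ against DN TILs (-3.22), and Ly6a in Bcl6-overexpressing cells drops from 1.69 to 0.32 once the length trend is removed.

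Prdm1 overexpression was not accompanied by a called difference in any of the 4 genes. Ly6a measured 218.1 and 119.2 CPM in control and 208.1 and 77.0 in Prdm1-overexpressing cells. Ly6c2 measured 622.5 and 324.3 CPM in control and 531.5 and 209.9 in overexpressing libraries. Ly6e measured 1464 and 1029 CPM against 1407 and 536.6. The groups overlapped for each gene, while they did not overlap for 51.1% of all genes tested, and the second library of each group was the lower for all of them. The log2 differences were -0.24 (SE 0.46) for Ly6a, -0.35 (SE 0.44) for Ly6c2 and -0.36 (SE 0.41) for Ly6e. These errors leave room for differences in either direction. In this experiment 1.36% of genes tested were called, 135 in number.

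Single libraries decided these values. Without the first overexpressing library the differences were -1.14, -1.18 and -1.22 for Ly6a, Ly6c2 and Ly6e, each called with 1 overexpressing library set against 2 controls, so that the spread came from the controls alone; without the second they were 0.23, 0.09 and 0.10, none called. Without the first control library they were 0.26, 0.19 and -0.08, none called. With the replicate number as a block they were -0.35, -0.43 and -0.50, and those of Ly6c2 and Ly6e were called. Monocyte and macrophage markers other than Spp1 summed to 540 and 472 CPM in control and to 344 and 211 in overexpressing libraries. As with the Ly6 genes, the second library of each group was the lower. Their part was not tested.

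Bcl6-overexpressing OT-I cells held more of all 3 tested genes than their controls. Ly6c2 measured 456.4 and 280.2 CPM in control and 643.2 and 772.3 in overexpressing cells, a log2 difference of 0.94 (SE 0.20). Ly6e measured 1196 and 918.1 CPM against 2099 and 1751, a log2 difference of 0.87 (SE 0.18). Ly6a measured 168.9 and 105.9 CPM against 444.1 and 443.6, a log2 difference of 1.69 (SE 0.20). The groups overlapped for none of them, nor for 75.7% of all genes tested. For Ly6a the controls lay farther apart than the overexpressing libraries. In this comparison 48.8% of all genes tested were called, as were all 3 Ly6 genes tested. Without the second control library, Ly6c2 (0.63) and Ly6e (0.69) were not called.

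Gene length moved with the groups of this experiment. Among the shortest quintile of tested genes the median log2 difference between Bcl6-overexpressing and control cells was 0.65, with 943 genes called higher and 229 lower. In the other quintiles, from shorter to longer, it was -0.01, -0.09, -0.15 and -0.10. Ly6a belongs to the shortest quintile, Ly6c2 to the second and Ly6e to the third. With a trend on length taken out in each library, a fit added after the values were seen, Ly6a differed by 0.32 (SE 0.17) and was not called. Ly6c2 (0.91, SE 0.19) and Ly6e (0.95, SE 0.17) kept their calls. Length here was the summed length of all exons, 2740 bases for Ly6c2 and 1205 for Ly6a. By principal transcript Ly6c2 is the shorter, at 822 bases against 955. What a trend on that length would leave of the Ly6c2 difference was not tested. In the TIL comparisons the medians of the quintiles lay between -0.09 and 0.06, and the differences of Ly6a without the trend were -1.08, 0.51 and -1.59, all called. The part of length in the Ly6a difference beyond that fit was not tested.

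**Figure D3:**
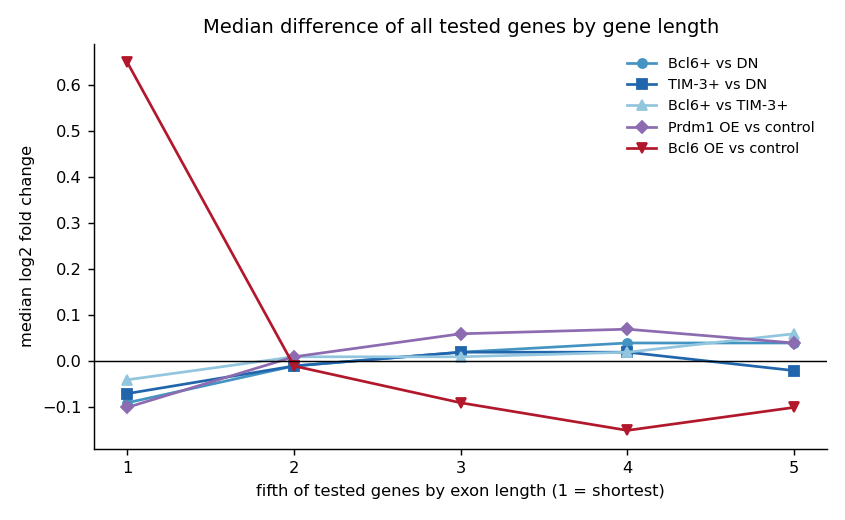
Median log2 difference of all tested genes (first group over second) in quintiles of exon length, from shortest to longest, for the 5 comparisons (OE, overexpressing). The shortest quintile stands at 0.65 in the Bcl6 experiment, while in the other comparisons the quintiles lie between -0.10 and 0.07.

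Markers of myeloid cells rose in the same comparison. Monocyte and macrophage markers other than Spp1 summed to 171 and 175 CPM in control and to 710 and 617 in Bcl6-overexpressing libraries. Of 11 tested with Spp1 among them, 10 were called higher and 1 lower (median log2 difference 1.93), where 48.8% of all genes tested were called. Lyz2 rose by 2.34 on the log2 scale (edgeR adjusted p = 6.9e-10), while Spp1 fell by 1.59 (edgeR adjusted p = 2.2e-07). Monocytes carry Ly6C and macrophages can carry Ly6A and Ly6E, so these values stand beside the 3 differences above. Neutrophil markers (8 of 8 listed, none at 0 throughout) summed to 42.7 to 45.6 CPM in overexpressing and 1.99 to 6.15 in control cells. The class II genes of the B cell list (Cd74, H2-Aa and H2-Ab1), shared by macrophages and dendritic cells, summed to 956 and 806 against 311 and 242 CPM; the other 3 listed B cell markers stayed between 5.05 and 7.63 CPM. Stromal markers (7 of 7) summed to 1.18 to 1.99 against 42.6 to 52.7 CPM, and endothelial markers (7 of 8) to 72.9 to 76.0 against 87.3 to 91.9. Plasmacytoid dendritic cell markers (5 of 6) summed to 67.0 to 87.0 against 42.9 to 44.2 CPM. Thymocyte and lymphoma markers (3 of 5) summed to 20.2 to 20.4 against 49.5 to 55.3 CPM, and CD4 T cell markers (5 of 5) to 753 to 818 against 1110. The part of any of these cells in the Ly6 differences was not tested.

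In FPKM, Ly6c2 exceeded Ly6a by 1.12 to 1.26 times in the libraries of the Prdm1 experiment and in the controls of the Bcl6 experiment. In Bcl6-overexpressing libraries the ratio was 0.637 and 0.766. Per base of the principal transcript the ratio was 2.97 to 3.32 in the former and 1.68 and 2.02 in the latter, so Ly6c2 then exceeded Ly6a in all of them and the ratio was again lowest in Bcl6-overexpressing libraries. By summed exon length, on which the length trend was measured, Ly6a is the shorter gene, whereas by principal transcript Ly6c2 is.

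The pathways around these genes were read through 7 lists of other genes, put together with earlier results of these data known. Their counts of calls stand beside the shares of all genes tested that were called in either direction. These were 14.2% in Bcl6+ against DN, 28.2% in TIM-3+ against DN and 38.6% in Bcl6+ against TIM-3+ TILs. In the Prdm1 and Bcl6 experiments they were 1.36% and 48.8%. Among receptors and signal carriers of interferon and IL-27, 17 genes were tested in TILs. In Bcl6+ against DN cells 4 were higher and 6 lower, with a median of -0.19 against 0.00 for all genes. Ifngr1, a chain of the interferon-gamma receptor, measured 352 ± 11 CPM in Bcl6+ and 971 ± 49 in DN cells (SD, n = 2; log2 difference -1.46, edgeR adjusted p = 2.2e-09). It was also lower in TIM-3+ than in DN cells (-0.46, edgeR adjusted p = 4.6e-05). Irf1, a factor that interferon induces, was lower in Bcl6+ than in DN cells (-0.77, edgeR adjusted p = 5.4e-05), whereas Stat3, which carries IL-27 and IL-6 signals, was higher (0.45, edgeR adjusted p = 9.7e-06).

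Genes of the type I interferon response were mostly lower in Bcl6+ than in DN cells: 21 of 33 tested were lower and 0 higher, with a median of -0.82. Ifit3, an antiviral protein, stood at 3.65 ± 0.24 against 33.1 ± 0.37 CPM (log2 difference -3.18, edgeR adjusted p = 4.1e-06) and Ifi208, a DNA-binding interferon-induced protein, at 14.3 ± 2.5 against 86.4 ± 4.5 CPM (-2.60, edgeR adjusted p = 1.3e-07). Without the first DN library 13 were lower. Interferon-gamma response genes gave 17 of 25 lower and 0 higher, with a median of -0.54, and 11 lower without either DN library. Gbp7, a guanylate-binding protein of host defence, was among them (-1.14, edgeR adjusted p = 1.5e-06), as was Serpina3g, a protease inhibitor (-1.39, edgeR adjusted p = 1.8e-07).

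In TIM-3+ against DN cells the 2 interferon lists parted. Of the type I genes 8 were lower and 1 higher (median -0.16; 0 higher without either DN library), and of the interferon-gamma genes 12 were higher and 1 lower (median 0.15). The 12 became 7 with scaling by total counts. Tap1, a peptide transporter, was higher in TIM-3+ cells (0.46, edgeR adjusted p = 8.6e-05), as was B2m, the light chain of class I molecules (0.30, edgeR adjusted p = 6.8e-06). Ifit3 (-2.45, edgeR adjusted p = 1.5e-05) and Oas3, a sensor of viral RNA (-1.11, edgeR adjusted p = 0.00022), were lower. Between Bcl6+ and TIM-3+ cells, 17 type I genes were lower and 3 higher in Bcl6+ cells (median -0.56), and 20 interferon-gamma genes were lower and 1 higher (median -0.57).

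Genes of migratory effector and memory CD8+ T cells, a state that Ly6C marks, gave 11 lower and 4 higher of 22 tested in Bcl6+ against DN cells (median -0.51). Ccr2, a chemokine receptor of cells that enter inflamed tissue, measured 11.3 ± 3.7 against 87.1 ± 13 CPM (log2 difference -2.95, edgeR adjusted p = 4.5e-07). S1pr1, the receptor for egress from tissue, was lower too (-2.16, edgeR adjusted p = 1.2e-06). Ccr7, which guides cells to lymph nodes, was higher (0.95, edgeR adjusted p = 3.2e-08). In TIM-3+ against DN cells 8 were higher and 10 lower (median -0.34; 5 higher without the second DN library), with Il2rb, a chain of the IL-2 and IL-15 receptors, higher (1.03, edgeR adjusted p = 2.9e-10) and Ccr7 lower (-3.06, edgeR adjusted p = 2.2e-13). In Bcl6+ against TIM-3+ cells, where Ly6c2 was also lower, 12 of the list were higher and 9 lower (median 0.31).

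The same lists read differently in the OT-I experiments. In Prdm1-overexpressing cells 1 of 37 type I genes rose, Ifit1 (1.29, edgeR adjusted p = 0.028), and 3 of 27 interferon-gamma genes rose (Tgtp2, Gbp4 and Gbp6, at 1.29, 1.15 and 1.13), with none lower in either list; without either control library none of these was called. Ccr7 fell by 0.97 on the log2 scale (edgeR adjusted p = 0.036), and this call was lost in the same way. In Bcl6-overexpressing cells 16 of 27 interferon-gamma genes fell and 6 rose (median -0.61), and 14 of 34 type I genes fell and 6 rose (median -0.27). Calls were common in this comparison, at 48.8% of all genes tested. Gbp4 fell by 1.48 (edgeR adjusted p = 4.3e-07), and Ifngr1 fell by 1.27 on the log2 scale (edgeR adjusted p = 3.1e-06). With the length trend removed 14 fell and 5 rose, and 13 fell and 8 rose.

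**Figure D4:**
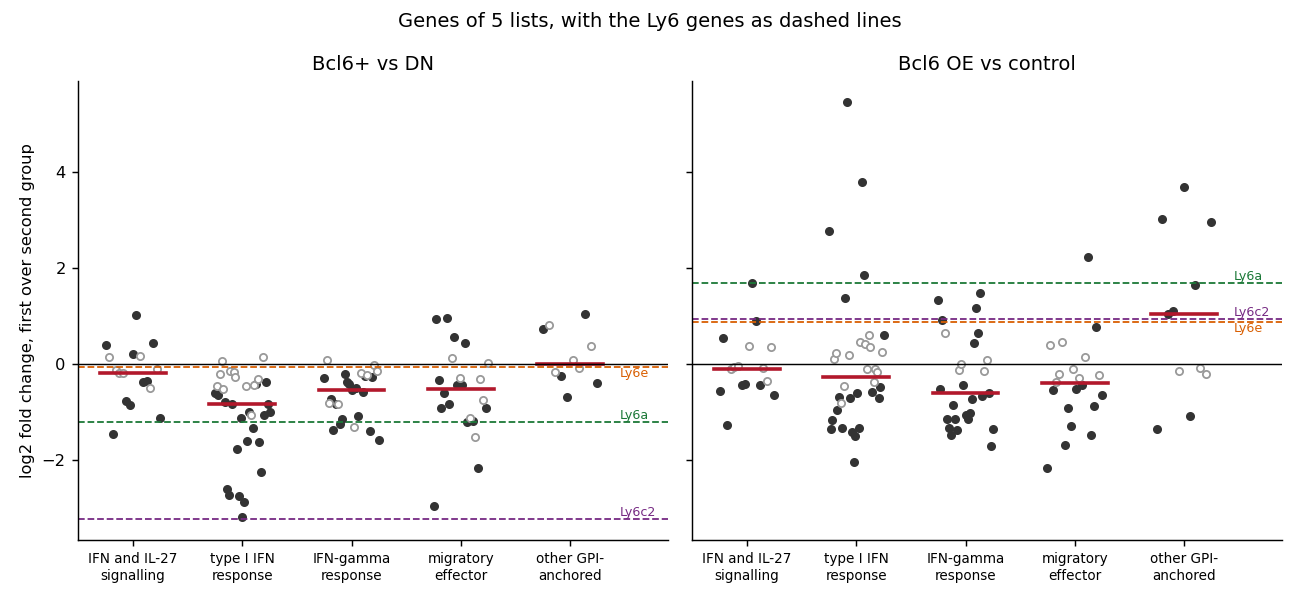
Log2 difference (first group over second) of each tested gene of 5 lists in Bcl6+ against DN TILs and in Bcl6-overexpressing (OE) against control OT-I cells; filled points were called, open points were not, red lines are medians and dashed lines the values of Ly6a, Ly6c2 and Ly6e. Among TILs the type I list has a median of -0.82 with Ly6c2 below at -3.22; in the Bcl6 experiment the interferon-gamma list has a median of -0.61 while the 3 Ly6 genes lie between 0.87 and 1.69.

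The short genes at the top of the type I list in Bcl6-overexpressing cells also depended on length. Ifi27l2a rose by 5.46 on the log2 scale in the main fit and by 1.74 without the length trend (edgeR adjusted p = 1.1e-12 and 2.0e-07), Isg15, a ubiquitin-like protein, by 3.79 and 1.09 (2.1e-08 and 0.0055) and Bst2, a tether of budding virus, by 2.77 and 0.67 (1.3e-09 and 0.0023). Migratory effector genes gave 10 lower and 2 higher of 20 (median -0.40; 6 lower without the first control library). Beside these counts, 48.8% of all genes tested were called. Ccr2 fell by 2.17 (edgeR adjusted p = 6.1e-09) and Klf2, a factor that maintains egress receptors, rose by 2.23 on the log2 scale (edgeR adjusted p = 9.8e-08).

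Genes that build and attach the GPI anchor, which every Ly6 protein needs, gave few calls among TILs, where 14.2%, 28.2% and 38.6% of all genes were called in the 3 comparisons. Of 25 tested, 1 was called in Bcl6+ against DN cells (Pigs, a subunit of the transamidase, at 0.22; edgeR adjusted p = 0.039) and 4 in TIM-3+ against DN cells, all higher, among them Pigs (0.35, edgeR adjusted p = 0.0013) and Pigv, a mannosyltransferase (0.67, edgeR adjusted p = 0.014), and 2 were lower in Bcl6+ than in TIM-3+ cells. The first was lost without any one of 3 libraries (either DN library or the second Bcl6+ library), and the 4 became 0 with scaling by total counts. In the Prdm1 experiment 0 of 25 were called by edgeR. The share of all genes tested that were called was 1.36% there and 48.8% with Bcl6 overexpression. In Bcl6-overexpressing cells 6 were higher and 4 lower (median -0.23): Pigt, another transamidase subunit, measured 91.1 ± 14 against 18 ± 0.69 CPM (SD, n = 2; 2.34, edgeR adjusted p = 1.2e-08) and was as high without the length trend (2.42), whereas the short gene Pigyl went from 2.29 to -0.18 and was no longer called.

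Other GPI-anchored proteins of lymphocytes did not follow a single direction in TILs, where 14.2% of all genes tested were called in Bcl6+ against DN cells. In Bcl6+ against DN cells 2 of 10 were higher and 3 lower, and without a DN library at most 1 was called in each direction. Cd52, a short glycopeptide of lymphocytes, measured 403 ± 5.1 against 645 ± 36 CPM (SD, n = 2; log2 difference -0.68, edgeR adjusted p = 4.3e-06), and Thy1, a classical T cell antigen, 163 ± 0.56 against 216 ± 5.4 (-0.40, edgeR adjusted p = 0.0082). Thy1 was highest in TIM-3+ cells, at 358 ± 47 CPM. Nt5e, the ectonucleotidase CD73, took another order, at 96.1 ± 13 CPM in Bcl6+, 46.8 ± 8.8 in DN and 6.92 ± 4.3 in TIM-3+ cells. In Bcl6-overexpressing cells 6 of 11 were higher and 2 lower, with a median of 1.05, where 48.8% of all genes tested were called. Thy1 rose from 58.2 ± 3.4 to 456 ± 85 CPM (SD, n = 2; 2.97 with and without the length trend, edgeR adjusted p = 5.0e-11 in the main fit), and Cd52 from 58.0 ± 7.6 to 741 ± 45 (3.68, and 2.24 without the trend; edgeR adjusted p = 2.3e-12 in the main fit).

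Few of the remaining relatives were expressed. Of 39 other genes of the Ly6 and uPAR family on the list, 36 appeared in some table, but 5 passed the filter among TILs, 7 with Prdm1 and 5 with Bcl6 overexpression. Plaur, the urokinase receptor, measured 12.1 ± 0.57 CPM in Bcl6+, 14 ± 2.1 in DN and 0.687 ± 0.97 in TIM-3+ TILs (SD, n = 2), and was higher in Bcl6+ than in TIM-3+ cells (4.12, edgeR adjusted p = 0.00068). Ly6d, better known from B lineage and keratinocytes, stood at 0.731 ± 0.045, 0.196 ± 0.28 and 5.03 ± 0.27 CPM in Bcl6+, TIM-3+ and DN cells. In Bcl6-overexpressing cells Plaur rose by 0.76 (edgeR adjusted p = 0.01) and Ly6k by 3.86 on the log2 scale (edgeR adjusted p = 0.0001); Ly6k went to 1.62 without the length trend and was no longer called. In the Prdm1 experiment 0 of 7 were called, where 1.36% of all genes tested were called.

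The tested neighbours on the chromosome moved in differing directions. Between Ly6e and Ly6a lies Ly6i, at most 2.74 FPKM in any library, which passed the filter in the OT-I experiments only and was called in neither. To the left of Ly6e, Ly6k was not called among TILs. Ly6d, at low levels, was lower in Bcl6+ than in DN cells (-2.77, edgeR adjusted p = 0.02), as Ly6a and Ly6c2 were. Ly6d was also lower in TIM-3+ than in DN cells (-4.64, edgeR adjusted p = 0.0011), where Ly6a was higher and Ly6c2 lower. In Bcl6+ against TIM-3+ cells, where Ly6a and Ly6c2 were lower, Ly6d was not called (1.86, edgeR adjusted p = 0.13). Farther out, Arc, an immediate early gene, was higher in Bcl6+ than in DN cells (0.83, edgeR adjusted p = 0.019) and lower in TIM-3+ than in DN cells (-2.16, edgeR adjusted p = 1.0e-05). To the right of Ly6c2, Zfp41 began 661.6 kb from the start of Ly6e. It was not called in Bcl6+ against DN cells (-0.32, edgeR adjusted p = 0.31), rose from DN to TIM-3+ cells (0.75, edgeR adjusted p = 0.0084) and was lower in Bcl6+ than in TIM-3+ cells (-1.07, edgeR adjusted p = 0.00046), directions that Ly6a also took. Top1mt and Zc3h3, the next tested genes, were not called in any TIL comparison. In Bcl6-overexpressing cells Ly6k, as given above, and Zc3h3 (1.01, edgeR adjusted p = 0.0058) were called higher. So were the distant Ptp4a3 (1.20, edgeR adjusted p = 3.6e-05) and Slc45a4 (1.19, edgeR adjusted p = 0.0013). Arc, Zfp41 and Top1mt were not called, in a comparison where 48.8% of all genes tested were called.

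**Figure D5:**
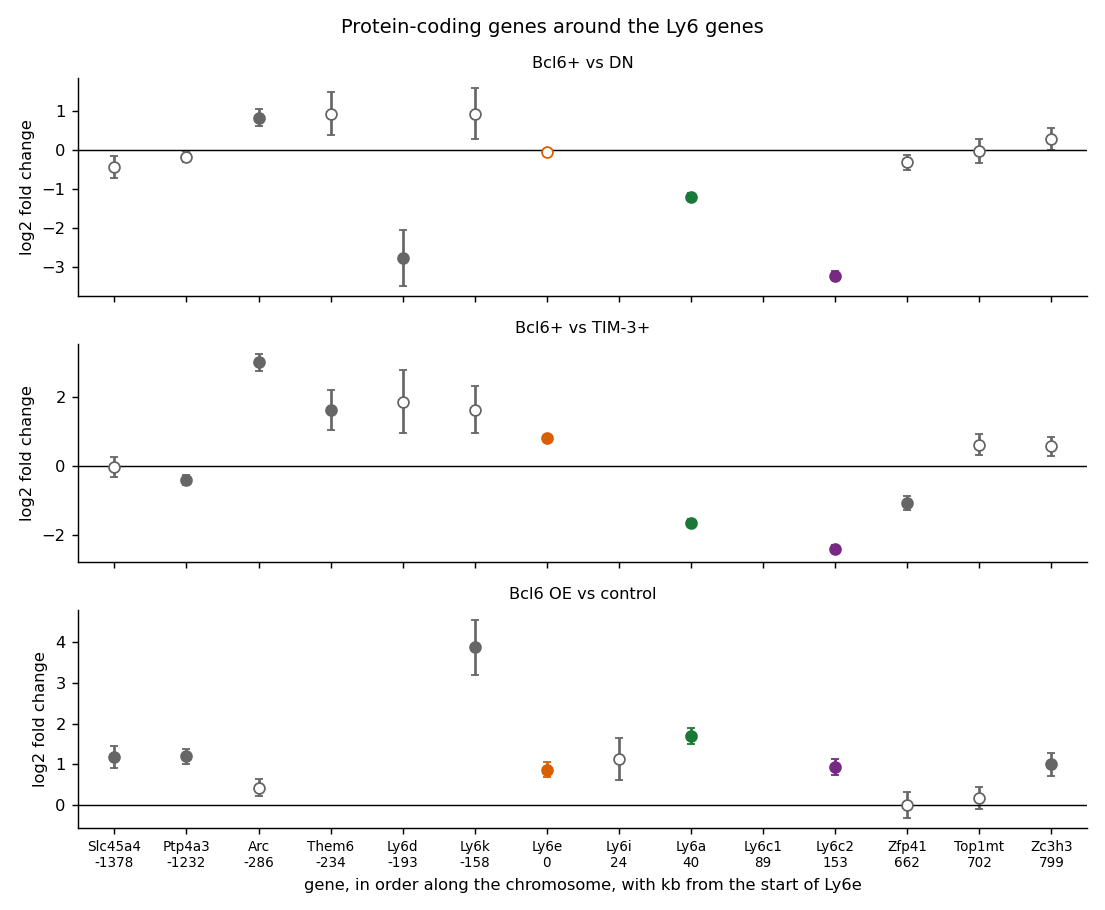
Log2 difference (first group over second) with standard error for tested protein-coding genes around the Ly6 genes, in order along the chromosome, in 3 comparisons; filled points were called, open points were not, and a gap means that the gene was not tested (OE, overexpressing). In Bcl6+ against DN TILs, Ly6a (-1.21) and Ly6c2 (-3.22) lie below Ly6e (-0.05) between flanking genes of which Arc and Ly6d were called.

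Genes with the most similar pattern were ranked by Pearson correlation of log2 CPM, centred within each experiment, over 14 libraries among 5444 genes; libraries of a group share their condition, and the values are a description. Plac8, a small cysteine-rich protein of leukocytes, came first for Ly6a (r = 0.96), followed by Tmem128, the phosphatase Dusp2, the dUTPase Dut and the cell-cycle protein Cks1b (0.95 to 0.96). Plac8 measured 34.3 ± 0.66 CPM in Bcl6+, 110 ± 0.52 in DN and 190 ± 0.18 in TIM-3+ TILs (SD, n = 2), in the order of Ly6a. Gzma, a granule protease of killer cells, came first for Ly6c2 (r = 0.94), then the nucleic acid sensor Zbp1, the interferon-induced Rtp4, Zfand2b and the lipid-droplet protein Hilpda (0.86 to 0.90). Gzma measured 1.46 ± 0.29 CPM in Bcl6+ and 16.3 ± 0.44 in DN cells (SD, n = 2; log2 difference -3.47, edgeR adjusted p = 1.4e-05). In Bcl6-overexpressing cells, where Ly6c2 was higher, Gzma measured 262 ± 32 against 268 ± 89 CPM.

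For Ly6e the closest were Psmg1, a proteasome assembly chaperone (r = 0.98), then the ribosome biogenesis proteins Nop16 and Ebna1bp2 and the mitochondrial prohibitin Phb (0.95 to 0.97). Nop16 measured 60.4 ± 2.4 CPM in Bcl6+, 65.4 ± 6.4 in DN and 37.1 ± 3.5 in TIM-3+ TILs. The genes named here as most similar belong to the 2 shortest quintiles by length in the Bcl6 experiment, so length moved with these rankings; its part was not tested. Among themselves, Ly6a and Ly6c2 correlated at 0.81 over the 14 libraries, Ly6a and Ly6e at 0.39, and Ly6c2 and Ly6e at 0.24. Within the 6 TIL libraries the same pairs stood at 0.86, -0.66 and -0.22. Ly6e thus ran against Ly6a there, whereas Ly6c2 and Ly6e were both lower in TIM-3+ than in DN cells (-0.83 and -0.87). In each OT-I experiment, with too few libraries for a coefficient, all pairs were positively related.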

How the data were processed

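Members and gene lists were chosen with earlier results of these data known. Per the file headers, each deposited table gives a count and an FPKM value per gene and library; the counts are whole numbers. For TILs, tools in the submitters' processing notes are Subread, Bowtie2, DESeq2, edgeR and featureCounts; for OT-I cells, RSEM, HISAT2, DESeq2 and featureCounts; the build is mm10. Versions, strand and the counting of reads with several matches: not given in the sources used here. Deposited FPKM matched the exon length of each gene and a library size between 0.938 and 1.11 times the total count, so the authors' denominator was not that total. The TIL and Bcl6 tables hold no gene whose counts sum to under 20.

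Counts were tested with edgeR 4.0.16 (quasi-likelihood, TMM) in R 4.3.3, on genes averaging 1 FPKM or more (9748 among TILs, 9947 with Prdm1, 9669 with Bcl6). Tests were two-sided, with a Benjamini-Hochberg threshold of 0.05. One fit held the 6 TIL libraries, and the OT-I experiments were fitted separately. SE was taken as the log2 difference divided by the root of its F statistic. The steps were tested on simulated data. Alternatives used DESeq2 1.42.0, limma 3.58.1, other scalings and filters, a replicate block, each library left out, the Ly6c counts summed and, added after seeing the data, a lowess trend on length taken out. Besides the members, genes were named by rule: up to 3 called genes of each list with the smallest p, the nearest tested protein-coding genes, and the 5 genes most like each member among those with a mean of at least 5 FPKM; Bcl6 and Prdm1 were added, and Spp1, Lyz2 and the class II genes after their values were seen. Some genes that the rule would name are not reported here.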

Additional observations from a re-analysis of the deposited data

How the results depend on the processing

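Ly6a, Ly6c2 and Ly6e kept their direction and side of the threshold in 272 of the alternatives run over the 5 comparisons; 6 lost a call, 5 gained one and 6 turned in sign, each without a call on either side. Of the turned values 1 was Ly6e in Bcl6+ against DN TILs with TPM (0.03). The others were in the Prdm1 experiment, at 0.26 for Ly6a and 0.19 for Ly6c2 without the first control and 0.23, 0.09 and 0.10 for Ly6a, Ly6c2 and Ly6e without the second overexpressing library. Ly6a in TIM-3+ against DN TILs lost its call with total counts (0.26) and TPM (0.24), and ranged from 0.35 to 0.50 with each library left out. With the length trend removed, Ly6a in Bcl6-overexpressing cells fell to 0.32 and lost its call. With each library left out, Ly6c2 in Bcl6-overexpressing cells ranged from 0.63 to 1.34 and Ly6e from 0.69 to 1.07. In the Prdm1 experiment the ranges were -1.14 to 0.26 for Ly6a, -1.18 to 0.19 for Ly6c2 and -1.22 to 0.10 for Ly6e, and the replicate block gave -0.43 for Ly6c2 and -0.50 for Ly6e, both called; the cause was not tested.

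Genes called in Prdm1-overexpressing cells (135 in the main fit) numbered 294 with total counts, 586 with DESeq2, 44 without the filter, 244 at 5 FPKM or more, 609 with TPM, 1659 with the replicate block, 453 without the length trend, and 3 to 784 with each library left out. They ranged from 736 to 1489 in Bcl6+ against DN TILs (1383 in the main fit) and from 1700 to 2943 in TIM-3+ against DN TILs (2745), lowest without a DN library, where the spread of that group rests on the other groups. The block changed no other call on these genes. Deviations of same-numbered libraries correlated at 0.0279, 0.0359 and 0.015 in the TIL comparisons, 0.28 for Prdm1 and -0.055 for Bcl6 overexpression, and nothing in the labels pairs them. TPM moved the median of all genes by -0.18 in TIM-3+ against DN, 0.25 in Bcl6+ against TIM-3+ and -0.32 in Bcl6-overexpressing cells, and turned the split of calls to 819 higher and 2275 lower (main 1454 and 1291), 3455 and 1123 (1857 and 1907), and 1741 and 3784 (2459 and 2261). Total counts gave 861 and 2217 in TIM-3+ against DN and 2948 and 1268 in Bcl6+ against TIM-3+ TILs. In the Prdm1 experiment the split was 115 and 20, against 174 and 120 with total counts and 288 and 165 without the length trend. Ly6c1, at 1 to 33 counts, is limited by depth.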
